A study of Mus musculus with 4 samples.

Results

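The genes described here encode 9 enzymes that make serine and move its one-carbon unit through the folate pool: Phgdh, Psat1 and Psph, the enzymes of serine synthesis, Shmt1 and Mthfd1 in the cytosol, and Shmt2, Mthfd2, Mthfd1l and Aldh1l2 in mitochondria. They were chosen by symbol, and all 9 were found among the 37653 genes of the FPKM table and the 55335 genes of the count table. All 9 passed the filter on low counts, as did 17262 genes in all.

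The RNA came from mouse spermatogonial stem cells (SSCs), the germ cells that sustain sperm production, which were kept in culture and collected on a cell sorter. The 2 groups were Tex11PM/Y cells and wild-type (WT) cells, with 2 libraries each. Tex11 lies on the X chromosome and its product acts in meiotic crossing-over. What PM stands for is not given by the labels, which name no treatment. Cells of both groups are described as derived from testis at postnatal day 10, of the strain C57/BL6*DBA2, and as grown in a standard medium. The 2 Tex11PM/Y libraries share a column name in the deposited tables, so they are called library A and library B and cannot be tied to a replicate number. Nothing states that libraries of a genotype came from separate animals or cultures, and p-values then measure only the spread between these libraries, which may be technical.

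Serine is made from 3-phosphoglycerate, an intermediate of glycolysis, in a short chain of reactions. PHGDH oxidises 3-phosphoglycerate in the committing step, PSAT1 adds the amino group from glutamate, and PSPH removes the phosphate. Serine hydroxymethyltransferase then splits serine to glycine and hands a one-carbon unit to tetrahydrofolate, in the cytosol by SHMT1 and in mitochondria by SHMT2. In mitochondria MTHFD2 oxidises the unit, and MTHFD1L releases it as formate, which leaves for the cytosol. There MTHFD1, a single protein with the matching activities, loads formate back onto folate for purine and thymidylate synthesis. ALDH1L2 instead burns the mitochondrial unit to carbon dioxide with production of NADPH. In many cell types Phgdh, Psat1, Shmt2 and Mthfd2 are known targets of ATF4, the transcription factor of the amino acid stress response.

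The promoters of the 3 serine synthesis genes are shown because these genes act in a single chain yet differed in how they varied between libraries. Those of Mthfd2 and Shmt2 are shown because the levels of these 2 mitochondrial partners varied in different libraries. Each window is RefSeq sequence of GRCm38.p6, the assembly behind mm10, and runs 300 bases, from 250 bases before to 50 bases after the RefSeq start site. That site is the gene start of the count table for Psat1 and Shmt2, and lies inside the gene by 2 bases for Mthfd2, 21 for Phgdh and 196 for Psph. Most of the Psph window therefore falls within the gene as the count table has it. Psph also shares 11 exon bases with Cct6a on the opposite strand. Whether words marked in the Psph window act for Psph, Cct6a or both was not tested. All 5 genes lie on the minus strand and are written 5′ to 3′ along the gene. The windows are chr3:98339920-98340219 for Phgdh, chr19:15925010-15925309 for Psat1, chr5:129787204-129787503 for Psph, chr6:83317555-83317854 for Mthfd2 and chr10:127522395-127522694 for Shmt2. Capitals mark CCAAT, or its reverse complement ATTGG.
Phgdh: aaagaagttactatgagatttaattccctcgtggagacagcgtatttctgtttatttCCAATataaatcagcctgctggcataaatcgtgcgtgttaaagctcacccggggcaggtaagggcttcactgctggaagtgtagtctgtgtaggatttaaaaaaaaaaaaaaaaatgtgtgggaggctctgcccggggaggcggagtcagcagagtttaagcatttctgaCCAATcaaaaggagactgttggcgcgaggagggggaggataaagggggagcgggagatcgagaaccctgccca
Psat1: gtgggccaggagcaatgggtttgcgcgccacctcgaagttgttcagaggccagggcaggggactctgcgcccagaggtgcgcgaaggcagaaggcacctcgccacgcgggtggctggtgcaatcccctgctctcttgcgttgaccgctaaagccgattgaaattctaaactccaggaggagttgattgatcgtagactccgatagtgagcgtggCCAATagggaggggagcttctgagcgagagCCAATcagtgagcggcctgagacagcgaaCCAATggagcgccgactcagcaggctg
Psph: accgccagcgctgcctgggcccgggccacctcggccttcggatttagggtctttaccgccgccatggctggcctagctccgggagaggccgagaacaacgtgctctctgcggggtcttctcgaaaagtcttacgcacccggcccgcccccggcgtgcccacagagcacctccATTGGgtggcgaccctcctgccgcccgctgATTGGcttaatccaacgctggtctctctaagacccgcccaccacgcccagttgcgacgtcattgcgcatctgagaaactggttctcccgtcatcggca
Mthfd2: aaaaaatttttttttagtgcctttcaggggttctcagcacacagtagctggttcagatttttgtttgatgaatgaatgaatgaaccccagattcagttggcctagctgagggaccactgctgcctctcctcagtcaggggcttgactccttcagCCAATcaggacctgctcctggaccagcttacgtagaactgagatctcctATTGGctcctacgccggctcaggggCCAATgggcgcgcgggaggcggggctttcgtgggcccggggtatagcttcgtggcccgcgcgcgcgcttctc
Shmt2: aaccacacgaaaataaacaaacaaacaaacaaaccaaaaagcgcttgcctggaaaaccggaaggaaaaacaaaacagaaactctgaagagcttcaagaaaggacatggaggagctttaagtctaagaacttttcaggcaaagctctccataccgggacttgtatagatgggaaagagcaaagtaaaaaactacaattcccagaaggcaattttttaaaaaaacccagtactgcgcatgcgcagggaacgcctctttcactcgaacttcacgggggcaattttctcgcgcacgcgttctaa

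A promoter was found for 8 of the 9 genes. Psat1 had 2 windows, and the window printed is the one whose start site is that of the gene in the count table. CCAAT on either strand was chosen after the sequences were seen. It stood 3 times in the windows of Psat1 and Mthfd2, 2 times in those of Phgdh and Psph, and 1 time in those of Shmt1 and Mthfd1. None stood in the windows of Shmt2 and Mthfd1l or in the second window of Psat1. Of all 32851 promoter windows of the same length, 37.4% held at least 1 CCAAT and 3.37% held 3 or more. The motif TGATGNAA, the element bound by ATF4 with C/EBP partners, on either strand, was in 0 of the 9 windows and in 3.97% of all windows. CACGTG, the E-box, which reads the same on both strands, was in 0 of the 9 windows and in 7.15% of all windows. With shares this low, 0 of 9 does not set these promoters apart from others. Sites outside the windows, or differing from the exact word, were not sought.

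Depth ran from 19047148 to 19804951 counts per library. Levels are given as CPM, counts scaled to library size by TMM, and a gene with 0 counts could lie at up to 3 counts, or 0.149 to 0.169 CPM. Tex11 held 22.7 and 9.32 CPM in the Tex11PM/Y libraries A and B, against 66.4 and 126 CPM in WT replicates 1 and 2 (edgeR adjusted p = 0.884). All 15 germ cell and SSC markers were tested, and together they took 0.451% and 0.376% of counts in libraries A and B, against 0.313% and 0.360% in WT replicates 1 and 2. The 11 Sertoli cell genes took at most 0.00392% in any library, and 1 of them, Fshr, was at 0 in all 4. The 29 fibroblast genes took 0.0904% and 0.911% of counts in libraries A and B, against 2.34% and 0.766% in WT replicates 1 and 2. The 14 macrophage genes took 0.00319% and 0.142% in libraries A and B, against 0.0687% and 0.0606% in the WT replicates. Library A was the lowest of the 4 for both lists. For the 9 enzymes a fit with the fibroblast list's mean as a covariate is given below. The part of such cells in the values was not otherwise tested. In bulk RNA, fewer cells of a type and less RNA per cell cannot be told apart.

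Summed as a group, the 9 enzymes took similar shares of counts in the 4 libraries. They took 0.105% and 0.0921% of counts in libraries A and B, against 0.0926% and 0.0924% in WT replicates 1 and 2. Each subgroup alone varied more. The mitochondrial enzymes ran from 0.0228% in WT replicate 1 to 0.0340% in library B. Serine synthesis ran from 0.0389% in library B to 0.0501% in WT replicate 1, and the cytosolic enzymes from 0.0187% in WT replicate 2 to 0.0259% in library A. Among related lists, purine and thymidylate genes took from 0.214% to 0.224%. Methionine cycle and transsulfuration genes took from 0.103% to 0.152%. The highest library exceeded the lowest by a median of 1.72-fold over the 9 genes, and by a median of 2.12-fold over all genes tested. Only Psat1 exceeded 2-fold, at 2.04-fold, where 54.3% of all genes tested did. These shares and folds describe 4 libraries and carry no test.

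**Figure D1:**
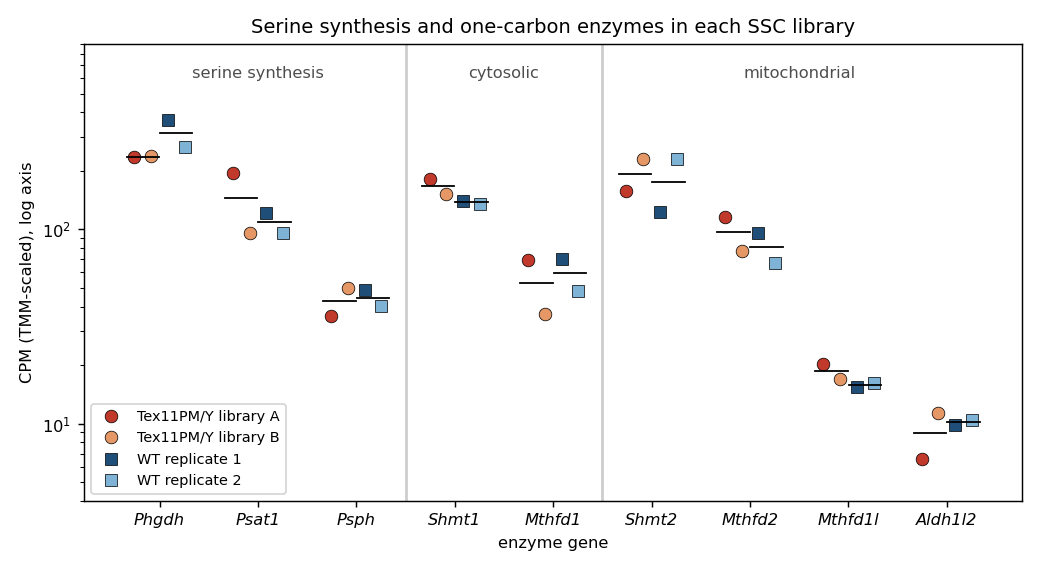
CPM of each enzyme gene (log axis) in Tex11PM/Y libraries A and B (circles) and WT replicates 1 and 2 (squares), with a bar at each group's mean. Psat1 stands highest in library A at 195 CPM, and Shmt2 pairs library B with WT replicate 2 at 230.1 and 229 CPM.

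None of the 9 enzymes differed between the genotypes past the threshold. Over all 17262 genes edgeR called 0 genes at an adjusted p under 0.05, which is 0% of genes, and 0 of the 9 enzymes. At an unadjusted p under 0.05 edgeR took 466 genes, or 2.7% (0.991% higher and 1.71% lower in Tex11PM/Y), and 0 of the enzymes. DESeq2 called 1 gene in all and limma on FPKM or TPM called 0 genes, and each called 0 of the enzymes. The fitted log2 fold changes of the 9, Tex11PM/Y over WT, had a median of 0.14 and ran from -0.41 to 0.42, with 5 above 0 and 4 below. All genes tested had a median of 0.01. The groups did not overlap for 3 of the 9 enzymes, with 2 higher and 1 lower in Tex11PM/Y, where 32.4% of all genes tested did not overlap.

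Phgdh, the committing enzyme, had the highest level per length of the 9, and its Tex11PM/Y values lay below both WT values without passing the test. It held 235 and 238 CPM in the Tex11PM/Y libraries A and B, against 366 and 264 CPM in WT replicates 1 and 2. The Tex11PM/Y libraries were close to each other, and most of the distance came from WT replicate 1. Means were 237 ± 2.12 CPM in Tex11PM/Y and 315 ± 71.8 CPM in WT (SD, n = 2 each). For its genotype difference edgeR fitted a log2 fold change of -0.41 (standard error 0.30, 95% interval from -1.12 to 0.29, adjusted p = 0.884). Without WT replicate 1 it was -0.18. Phgdh (ENSMUSG00000053398.11) covers chromosome 3, minus strand, from 98313170 to 98339990 in mm10. Mouse Phgdh has 9 annotated processed pseudogenes that match its transcript at 95% identity or more, and these together held 199 and 162 counts in libraries A and B, against 260 and 232 in the WT replicates. That is between 3.39% and 4.44% of the counts of Phgdh itself in each library. How the counting treated reads that match several copies is not known, so the level of Phgdh is uncertain by an amount these counts do not set.

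Psat1, the aminotransferase of the second step, was set apart by library A. It held 195 and 95.6 CPM in the Tex11PM/Y libraries A and B, against 122 and 95.6 CPM in WT replicates 1 and 2. Library A was the highest of the 4, while library B and WT replicate 2 had almost the same level and the groups overlapped. Means were 145 ± 70.0 CPM in Tex11PM/Y and 109 ± 18.7 CPM in WT (SD, n = 2 each). By edgeR the log2 fold change came to 0.42 (standard error 0.39, 95% interval from -0.51 to 1.34, adjusted p = 0.884). It turned to -0.18 without library A and was 0.79 without library B. It also turned to -0.20 when the fibroblast list's mean entered the fit as a covariate. Psat1 (ENSMUSG00000024640.9) covers chromosome 19, minus strand, from 15904678 to 15925059 in mm10.

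Psph, the phosphatase of the last step, was nearly level. It held 35.9 and 49.7 CPM in the Tex11PM/Y libraries A and B, against 48.5 and 40.2 CPM in WT replicates 1 and 2. The Tex11PM/Y libraries were the lowest and the highest of the 4, so the WT values lay between them. The edgeR log2 fold change stood at -0.05 (standard error 0.35, 95% interval from -0.89 to 0.78, adjusted p = 0.985), and it was 0.02 when counts were scaled by library size alone. That interval does not show that the genotypes are alike. Psph (ENSMUSG00000029446.14) lies on chromosome 5 from 129765558 to 129787449 in mm10 and shares 11 exon bases with the chaperonin gene Cct6a on the opposite strand. A transcript annotated to Cct6a also matched 452 of the 1733 bases of Psph at 100% identity. Cct6a held 8859 and 9465 counts in libraries A and B, against 7304 and 8828 in the WT replicates. Those of Psph were 712 and 998 in libraries A and B, against 864 and 794 in the WT replicates, so its level is uncertain where the 2 genes match.

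The 3 steps of serine synthesis had different profiles across the libraries. The FPKM ratio of Psat1 to Phgdh, which is per length and does not depend on library scaling, was 0.592 and 0.283 in the Tex11PM/Y libraries A and B, against 0.238 and 0.259 in WT replicates 1 and 2. Library A stood well above the other 3, and both Tex11PM/Y ratios were above both WT ratios. The ratio of Psph to Phgdh was 0.197 and 0.254 in libraries A and B, against 0.163 and 0.188 in the WT replicates. That of Psat1 to Psph was 3.01 and 1.11 in libraries A and B, against 1.46 and 1.38 in the WT replicates, so the groups overlapped (exact two-sided permutation p = 1). These ratios were chosen after the values were seen. For the first 2 of them the exact two-sided permutation p was 0.3333, the smallest that 2 libraries against 2 can give.

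Shmt1, the cytosolic hydroxymethyltransferase, had Tex11PM/Y values above both WT values without passing the test. It held 183 and 153 CPM in the Tex11PM/Y libraries A and B, against 140.4 and 135 CPM in WT replicates 1 and 2. The groups were apart by the gap between library B and WT replicate 1, smaller than that between libraries A and B. Means were 168 ± 21.2 CPM in Tex11PM/Y and 138 ± 3.66 CPM in WT (SD, n = 2 each). For its genotype difference edgeR fitted a log2 fold change of 0.28 (standard error 0.28, 95% interval from -0.37 to 0.94, adjusted p = 0.886), and it stayed above 0 with each library left out, from 0.15 to 0.36. Shmt1 (ENSMUSG00000020534.14) covers chromosome 11, minus strand, from 60788104 to 60811265 in mm10. It shares 184 of its 2858 exon bases with Smcr8 on the opposite strand, and the kit is not stated to keep strand, so reads there cannot be told apart.

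Mthfd1, the trifunctional cytosolic enzyme, was lowest in library B. It held 69.4 and 36.8 CPM in the Tex11PM/Y libraries A and B, against 70.4 and 48.3 CPM in WT replicates 1 and 2. Library A and WT replicate 1 were alike and high, and the other 2 were lower, so the split ran across the genotypes. By edgeR the log2 fold change came to -0.16 (standard error 0.41, 95% interval from -1.13 to 0.81, adjusted p = 0.956). It was -0.69 without library A and turned to 0.18 without library B and to 0.11 without WT replicate 1. The fibroblast covariate moved it to -0.65.

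Mthfd1 (ENSMUSG00000021048.7) covers chromosome 12, plus strand, from 76255298 to 76319803 in mm10. Chromosome 12 genes as a whole were high in WT replicate 2, where 632 tested genes had a median of 0.57 log2 CPM above the average of the 3 remaining libraries. Mthfd1 went the other way there, at -0.22, which is -0.79 relative to the chromosome's median. Of the 632 genes 29, or 4.59%, had a lower value.

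Shmt2, the mitochondrial hydroxymethyltransferase, grouped library B with WT replicate 2. It held 157 and 230.1 CPM in the Tex11PM/Y libraries A and B, against 123 and 229 CPM in WT replicates 1 and 2. WT replicate 1 was lowest, library A followed, and the difference inside each genotype was larger than that between them. Means were 194 ± 51.6 CPM in Tex11PM/Y and 176 ± 75.3 CPM in WT (SD, n = 2 each). The edgeR log2 fold change stood at 0.14 (standard error 0.39, 95% interval from -0.77 to 1.05, adjusted p = 0.961). It was 0.64 without WT replicate 2 and 0.39 without library A, and turned to -0.26 without WT replicate 1 and to -0.21 without library B. Shmt2 (ENSMUSG00000025403.5) covers chromosome 10, minus strand, from 127517123 to 127522444 in mm10.

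Mthfd2, the mitochondrial dehydrogenase and cyclohydrolase that is high in embryonic and dividing cells, did not follow Shmt2. It held 116 and 77.0 CPM in the Tex11PM/Y libraries A and B, against 95.6 and 67.4 CPM in WT replicates 1 and 2. Here library A and WT replicate 1 were the high pair, as for Mthfd1. For its genotype difference edgeR fitted a log2 fold change of 0.24 (standard error 0.35, 95% interval from -0.58 to 1.07, adjusted p = 0.918). It was 0.49 without WT replicate 1 and 0.46 without library B, and turned to -0.08 without library A, to -0.01 without WT replicate 2 and to -0.02 with the fibroblast covariate. Mthfd2 (ENSMUSG00000005667.8) covers chromosome 6, minus strand, from 83305691 to 83317606 in mm10.

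Mthfd1l, which releases formate from mitochondria, varied least of the 9. It held 20.3 and 16.9 CPM in the Tex11PM/Y libraries A and B, against 15.5 and 16.1 CPM in WT replicates 1 and 2. The Tex11PM/Y libraries were both above the WT libraries, library B by less than 1 CPM. By edgeR the log2 fold change came to 0.24 (standard error 0.41, 95% interval from -0.73 to 1.22, adjusted p = 0.932). It was 0.072 with the fibroblast covariate. Mthfd1l (ENSMUSG00000040675.17) covers 193964 bases of chromosome 10, from 3973118 to 4167081 on the plus strand in mm10.

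Aldh1l2, which oxidises the one-carbon unit to carbon dioxide in mitochondria, had the lowest level per length of the 9. It held 6.55 and 11.3 CPM in the Tex11PM/Y libraries A and B, from 130 and 227 counts, against 9.83 and 10.4 CPM in WT replicates 1 and 2, from 175 and 206 counts. Library A was low and the other 3 were close to each other. The edgeR log2 fold change stood at -0.18 (standard error 0.53, 95% interval from -1.42 to 1.06, adjusted p = 0.962). Without library B it was -0.67, it turned to 0.16 when library A was left out, and was 0.19 with the fibroblast covariate. Aldh1l2 (ENSMUSG00000020256.14) covers chromosome 10, minus strand, from 83487450 to 83534140 in mm10. It shares 1056 of its 6091 exon bases, or 17.3%, with D10Wsu102e on the opposite strand. That gene held 8797 and 8818 counts in libraries A and B, against 4659 and 5718 in the WT replicates, so reads assigned there are uncertain.

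**Figure D2:**
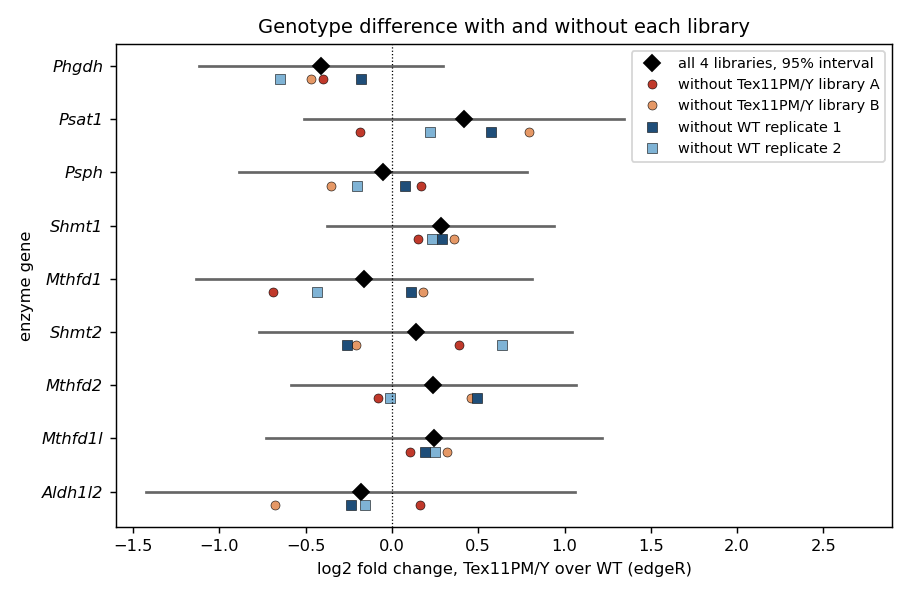
Log2 fold change of each enzyme gene, Tex11PM/Y over WT, from edgeR (diamonds, with 95% intervals as lines) and after leaving out each library (coloured points). Every interval spans 0, and leaving out a library moved Psat1 between -0.18 and 0.79 and Shmt2 between -0.26 and 0.64.

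Set library by library, each departure past 1.5-fold was of 1 enzyme in 1 library. Library A exceeded the mean of the other 3 by more than 1.5-fold for 1 enzyme, Psat1, at 0.91 log2, and lay as far below it for 1, Aldh1l2, at -0.67, where 23.7% of all genes tested were past that fold in each direction. Library B was as far below for 1 enzyme, Mthfd1, at -0.75, where 10.3% of all genes were. WT replicate 1 was as far below for 1, Shmt2, at -0.72, where 23.7% of all genes were. In WT replicate 2, 0 of the 9 were past that fold in either direction, where 12.2% of all genes were higher and 7.72% lower. Over the 9 enzymes library B and WT replicate 2 were the closest pair, with a root mean square difference of 0.20 log2 and 0 of the 9 enzymes over 1.5-fold apart, where 18.4% of all genes were, and they were also the closest over all genes, at 0.50 log2. Libraries A and B were the most distant pair at 0.62 log2, with 4 of the 9 enzymes over 1.5-fold apart, where 45.5% of all genes were. Over all genes the most distant pair was library A and WT replicate 1, at 1.45 log2. With 1 library on each side these differences have no replicate check.

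**Figure D3:**
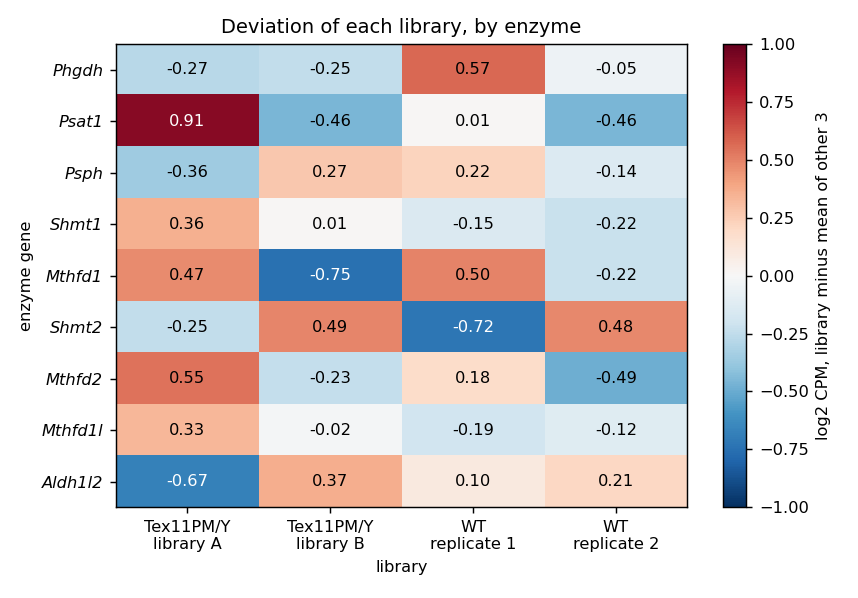
Log2 CPM of each library minus the mean of the other 3, for each enzyme gene (rows) and library (columns). Red cells are above and blue cells below the other libraries; the extremes are Psat1 in library A at 0.91 and Mthfd1 in library B at -0.75.

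By level per length, in the authors' FPKM, Phgdh stood first and the formate and carbon dioxide branches last. Over the 4 libraries Phgdh averaged 119.8 ± 19.03 FPKM (SD, n = 4), with a lowest value of 106 that was above the highest of any other member. Shmt2 followed at 65.9 ± 22.1, Shmt1 at 43.2 ± 7.22, Psat1 at 39.7 ± 15.3, Mthfd2 at 34.7 ± 8.57 and Psph at 23.6 ± 3.07 FPKM. From Shmt2 to Psph the range of each member over the libraries overlapped that of the next. Within a library the order by FPKM was steadier, with Shmt2 above Shmt1 and Psph at rank 6 in all 4. Psat1 ran from rank 2 to rank 5 (3 to 5 by counts per exon base), so its place is not settled by these data. As it passed them, Shmt2 moved between ranks 2 and 3, Shmt1 between 3 and 4 and Mthfd2 between 4 and 5. Mthfd1 at 14.0 ± 3.63, Mthfd1l at 3.85 ± 0.678 and Aldh1l2 at 1.23 ± 0.367 FPKM each lay below the range of the member before. TPM values and counts per exon base gave the same order of means, but by counts per exon base Mthfd2 lay apart from Psph and Psph overlapped Mthfd1.

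The cytosolic and mitochondrial paralogs were compared as FPKM ratios within a library. Shmt2 exceeded Shmt1 by 1.07-fold and 1.88-fold in Tex11PM/Y libraries A and B, against 1.08-fold and 2.14-fold in WT replicates 1 and 2. The ratio thus lay near 1 in a library of each genotype and near 2 in the other, and its group means on the log2 scale differed by -0.10 (exact two-sided permutation p = 0.667). Mthfd2 exceeded Mthfd1 by 2.68-fold and 3.26-fold in libraries A and B, against 2.07-fold and 2.13-fold in WT replicates 1 and 2. These groups did not overlap, with mean log2 ratios of 1.56 ± 0.20 in Tex11PM/Y and 1.07 ± 0.03 in WT (SD, n = 2 each). The difference of 0.49 had an exact two-sided permutation p of 0.3333, which is the smallest this design allows. Mthfd1l stood at 0.273 and 0.405 of Mthfd1 in libraries A and B, against 0.189 and 0.294 in the WT replicates, and the groups overlapped (exact two-sided permutation p = 0.667). In all 7 ratios were computed, and the smallest p after Benjamini-Hochberg adjustment over the 7 was 0.778.

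**Figure D4:**
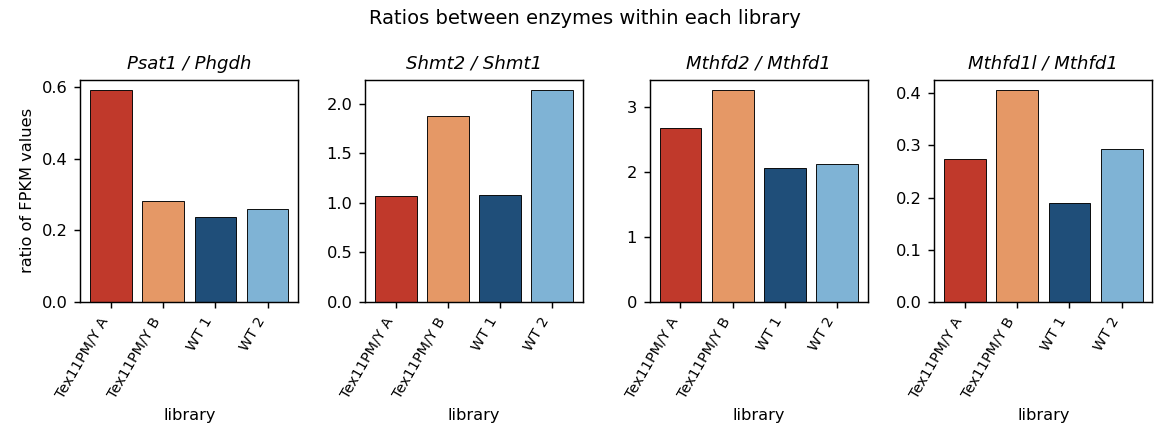
Ratio of FPKM values of 2 enzyme genes within each library (bars start at 0), for Tex11PM/Y libraries A and B and WT replicates 1 and 2. Psat1 over Phgdh stands out in library A at 0.592, Shmt2 over Shmt1 alternates within each genotype, and Mthfd2 over Mthfd1 is higher in both Tex11PM/Y libraries.

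The alternative isozymes had few reads. Mthfd2l, the isozyme of Mthfd2 that is found in adult tissues, held 0.554 and 1.45 CPM in libraries A and B, against 2.30 and 1.47 CPM in WT replicates 1 and 2. In counts that is 11 and 29 in libraries A and B, against 41 and 29 in the WT replicates. Mthfd2 exceeded it in FPKM by 193-fold and 29.9-fold in libraries A and B, against 30.8-fold and 31.6-fold in the WT replicates, and the value of library A rests on those 11 counts (exact two-sided permutation p = 1). Aldh1l1, the cytosolic counterpart of Aldh1l2, held 0.806 and 1.94 CPM in libraries A and B, against 3.99 and 3.14 CPM in WT replicates 1 and 2 (edgeR log2 fold change -1.37 ± 0.73 SE, adjusted p = 0.884). Both isozymes were lowest in library A, as the fibroblast and macrophage lists were, and the part of other cells was not tested.

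Around the 9 enzymes, 0 genes of the 8 related lists passed the threshold in either direction, with an edgeR adjusted p of 0.884 or more for each gene, so counts by sign are fitted directions only. In the list of folate supply and the remaining folate enzymes 8 of 16 tested genes were fitted higher, with a median log2 fold change of -0.02. Tyms, the thymidylate synthase that consumes a one-carbon unit, held 26.6 and 27.4 CPM in libraries A and B, against 15.6 and 19.4 CPM in WT replicates 1 and 2. Ggh, which trims polyglutamate from stored folate, held 4.48 and 9.37 CPM in libraries A and B, against 16.3 and 9.76 CPM in the WT replicates. Both genes had groups that did not overlap, Tyms higher and Ggh lower in Tex11PM/Y. Over the 16 genes the groups were apart for 1 higher and 4 lower, where 16.1% of all genes tested were apart higher and 16.3% lower.

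Glycine cleavage and glycine use had 7 of 10 tested genes fitted higher, with a median of 0.27. Gldc, the decarboxylase of the glycine cleavage system, held 19.1 and 32.2 CPM in libraries A and B, against 20.7 and 65.6 CPM in WT replicates 1 and 2, and the groups overlapped. The methionine cycle, which takes its methyl groups from folate, had 8 of 12 genes fitted higher, with a median of 0.17. Mat2a, which makes S-adenosylmethionine, held 284 and 119 CPM in libraries A and B, against 129 and 134 CPM in WT replicates 1 and 2. Like Psat1, Mat2a was set apart by library A alone. Mat2b, its regulatory partner, held 161 and 119 CPM in libraries A and B, against 76.1 and 121 CPM in the WT replicates. Purine and thymidylate synthesis had 9 of 19 genes fitted higher, with a median of -0.00, and the groups were apart for 4 genes in each direction, where 16.1% of all genes tested were apart higher and 16.3% apart lower. Ppat, the first enzyme of purine synthesis, held 138 and 106 CPM in libraries A and B, against 68.9 and 90.5 CPM in WT replicates 1 and 2, and the groups did not overlap (edgeR log2 fold change 0.61 ± 0.32 SE, adjusted p = 0.884). Impdh2, which commits purines to guanine nucleotides, held 280.2 and 330.3 CPM in libraries A and B, against 485 and 354 CPM in the WT replicates. Tk1, the thymidine kinase of dividing cells, held 11.03 and 30.8 CPM in libraries A and B, against 39.6 and 32.6 CPM in the WT replicates. These 2 genes were apart in the opposite direction to Ppat.

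Among carriers of serine and glycine, Slc1a4 and Slc6a9 had higher values in both Tex11PM/Y libraries than in the WT libraries. Slc1a4, a neutral amino acid carrier that takes serine, held 55.5 and 58.8 CPM in libraries A and B, against 19.9 and 31.3 CPM in WT replicates 1 and 2. Means were 57.1 ± 2.33 CPM in Tex11PM/Y and 25.6 ± 8.07 CPM in WT (SD, n = 2 each), a log2 fold change of 1.16 with a standard error of 0.38 (edgeR adjusted p = 0.884). Slc6a9, the glycine transporter GlyT1, held 82.2 and 56.6 CPM in libraries A and B, against 26.2 and 39.5 CPM in WT replicates 1 and 2. Its groups did not overlap either (edgeR log2 fold change 1.08 ± 0.38 SE, adjusted p = 0.884). The sideroflexins, the family of the mitochondrial serine carrier, had values that differed in direction. Sfxn2 held 14.2 and 4.43 CPM in libraries A and B, against 1.07 and 4.80 CPM in the WT replicates, and Sfxn3 held 7.05 and 10.7 CPM in libraries A and B, against 30.2 and 9.61 CPM in the WT replicates. For both of these WT replicate 1 and library A were the extremes. These 4 genes were named for having the smallest p of the list. The whole list had 8 of 15 tested genes fitted higher, with a median of 0.01. Its groups were apart for 2 genes higher and 2 lower, where 16.1% of all genes tested were apart higher and 16.3% lower.

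Genes of glycolysis, the source of 3-phosphoglycerate, had low values in library A, where Psat1 was high and Phgdh and Psph also had their lowest values. All 14 were fitted lower in Tex11PM/Y, with a median log2 fold change of -0.64, beside 0.01 over all genes tested, and 13 of the 14 had their lowest value in library A, as 34.4% of all genes did. Pgk1, which makes 3-phosphoglycerate, held 26.0 and 108 CPM in libraries A and B, against 191 and 145 CPM in WT replicates 1 and 2 (edgeR log2 fold change -1.33 ± 0.63 SE, adjusted p = 0.884). Tpi1, the triosephosphate isomerase, held 23.5 and 127 CPM in libraries A and B, against 178 and 191 CPM in the WT replicates. For Pgk1 and Tpi1 library B was also below both WT libraries, by less than library A. The groups did not overlap for 7 of the 14 genes, all 7 lower in Tex11PM/Y, where 16.3% of all genes tested were apart in that direction. For each of the other 7 library B lay above a WT library. The glycolysis genes lay at a median of -0.99 log2 CPM in library A, relative to each gene's mean over the 4 libraries, while the 9 enzymes lay at 0.25. The 3 serine synthesis genes alone lay at a median of -0.21 there, with Phgdh at 235 CPM, close to its 238 CPM in library B. The fibroblast list was lowest in library A as well, at -3.22 on the same scale, and its part in the glycolysis values was not tested.

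The list of the ATF4 response did not have a common direction. Atf4 itself held 198 and 231 CPM in libraries A and B, against 281 and 227 CPM in WT replicates 1 and 2 (edgeR log2 fold change -0.24 ± 0.29 SE, adjusted p = 0.898). Of 33 genes 20 were fitted higher, with a median of 0.07. In library A 15 had their highest value, which is 45.5% where 35.0% of all genes did. Another 11, or 33.3%, had their lowest value there, where 34.4% of all genes did. Among 12 aminoacyl-tRNA synthetases of the list, a subset drawn up after the values were seen, 9 were highest in library A. Asns, the asparagine synthetase, likewise chosen afterwards, held 144 and 36.9 CPM in libraries A and B, against 45.1 and 46.2 CPM in WT replicates 1 and 2. It shared with Psat1 a high value in library A beside 3 lower ones. Slc7a3, a carrier of cationic amino acids, held 26.8 and 4.68 CPM in libraries A and B, against 3.31 and 5.41 CPM in the WT replicates. Trib3, a pseudokinase induced by ATF4, held 39.4 and 37.8 CPM in libraries A and B, against 22.5 and 25.1 CPM in WT replicates 1 and 2, and its groups did not overlap. Over the 33 genes the groups were apart for 9 higher and 4 lower, where 16.1% of all genes tested were apart higher and 16.3% lower. Atf3 held 4.38 and 12.6 CPM in libraries A and B, against 45.2 and 11.4 CPM in the WT replicates, and Cars held 175 and 114 CPM in libraries A and B, against 73.3 and 104 CPM there.

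The MYC family, whose proteins are known to drive one-carbon genes in dividing cells, had 2 of 4 genes fitted higher. Mycn held 111 and 108 CPM in libraries A and B, against 50.2 and 98.2 CPM in WT replicates 1 and 2. Myc held 1.46 and 3.04 CPM in libraries A and B, against 11.6 and 4.80 CPM in the WT replicates. Neither passed the test (edgeR adjusted p = 0.884 for both), and both had their most distant value in WT replicate 1. The groups did not overlap for either, with Mycn higher and Myc lower in Tex11PM/Y. Over the 4 genes the groups were apart for 2 higher and 1 lower, where 16.1% of all genes tested were apart higher and 16.3% lower. Mycn lies on chromosome 12, whose genes had a median of 0.57 log2 CPM above the remaining libraries in WT replicate 2. The part of this in its value there was not tested.

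**Figure D5:**
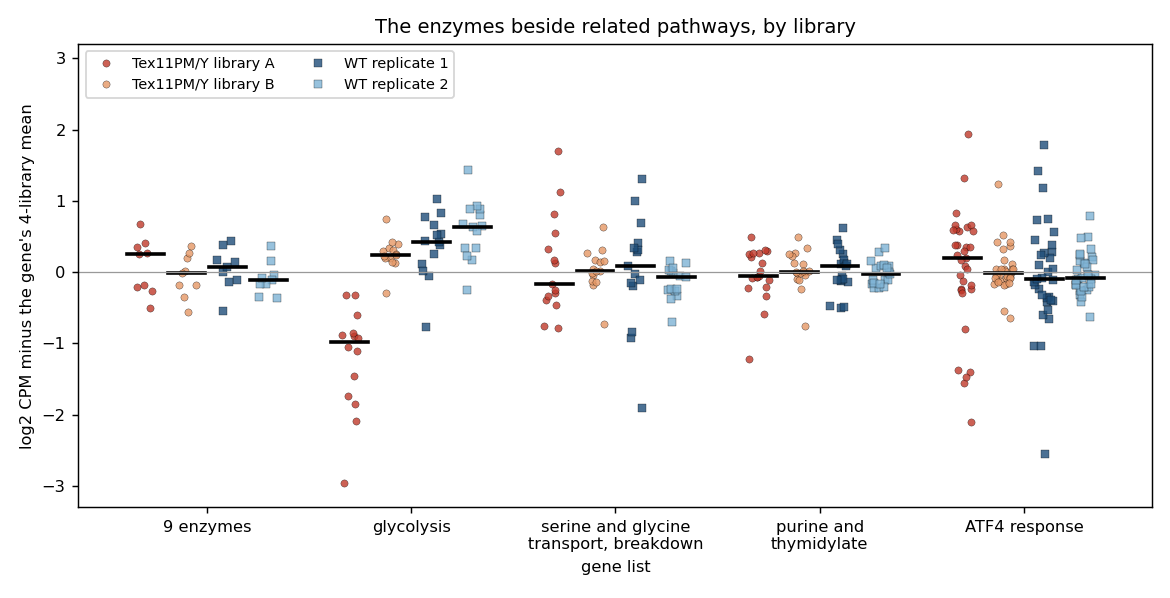
Log2 CPM minus each gene's mean over the 4 libraries, for the 9 enzymes and 4 related lists; each point is a gene in a library, and bars are medians. Glycolysis genes have a median of -0.99 in library A, where the 9 enzymes have 0.25 and the ATF4 list 0.20.

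The genes with the most similar profiles over the 4 libraries were sought among 9479 other named genes with a mean of at least 10 CPM, by Euclidean distance of centred log2 CPM. Nearest to the mean of Phgdh, Psat1 and Psph were Cers5, Rgmb, Ccnb1ip1, Smap1 and Ulk3, at distances from 0.03 to 0.05. Nearest to the mean of Shmt2, Mthfd2, Mthfd1l and Aldh1l2 were Cct6a, Mcmbp, Lats2, Tmco1 and Arhgap44, at distances from 0.03 to 0.04. Those mean profiles were nearly flat, since their members differed in direction, with no library further than 0.20 log2 from the mean for the first and 0.12 for the second.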

How the data were processed

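Poly(A) RNA of sorted SSCs was sequenced in 4 libraries, from 1 µg of RNA each per the labels' protocols. Tools named in the submitters' processing notes are DESeq2, featureCounts, StringTie, STAR and fastp, with the build mm10 and neither roles nor versions. The authors deposited whole-number read counts per gene, and FPKM and TPM values per gene, as per the file headers. The release of the gene annotation was not given in the sources used here.

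Each count fit used edgeR 4.0.16 under R 4.3.3, with filterByExpr, TMM scaling, genotype as the only term and the robust quasi-likelihood F test, with Benjamini-Hochberg adjustment over 17262 genes and a threshold of 0.05. The standard error is the size of the log2 fold change over the square root of F. For log2 CPM a prior count of 2 was added. Ratios were tested with exact two-sided permutation in scipy 1.17.1. Similar transcripts were sought with blastn 2.17.0 at 95% identity or more over at least 200 bases. The Tex11PM/Y against WT fit was tested on simulated data, 5 sets each with 200 changed genes and per-gene dispersions. It recovered 1% of 2-fold and 29.2% of 4-fold changes among 16736 genes on average. It also called 11 genes a set, on average, that had not been changed. With a dispersion of 0.01 for every gene it recovered 93.4% and 100% among 16947 genes on average, and called 7.8 unchanged genes a set. The biological coefficient of variation was 43.5%. The limit given for a count of 0 covers counting error only.

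The 9 enzymes, the gene lists and the tests were chosen with earlier results of these data known. Genes named were the 9 enzymes, Tex11, Atf4, Myc, Mycn, Mthfd2l and Aldh1l1, the nearest profiles, and from each list up to 4 genes with the smallest p. Others are said to be chosen afterwards. All 205 distinct genes of the lists were matched, Mars1 by its older symbol and Fshr by its gene ID. Other settings tried were scaling by DESeq2 size factors or by library size alone, no filter on counts or at least 1 CPM in 2 libraries, DESeq2 1.42.0 itself, each library left out in turn, and limma 3.58.1 on FPKM (pseudocount 1 or 0.1) and TPM (pseudocount 1) in log2, which understates the change of low genes. The fibroblast covariate was added after the data were seen.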

Additional observations from a re-analysis of the deposited data

How the results depend on the processing

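Each of the 9 log2 fold changes missed the threshold under all 13 alternatives, with a smallest adjusted p of 0.395, and 99 of 117 values kept their sign. Phgdh, Shmt1 and Mthfd1l kept theirs throughout. With libraries left out in turn, values ran from -0.65 to -0.18 for Phgdh, -0.18 to 0.79 for Psat1, -0.35 to 0.17 for Psph, 0.15 to 0.36 for Shmt1, -0.69 to 0.18 for Mthfd1, -0.26 to 0.64 for Shmt2, -0.079 to 0.49 for Mthfd2, 0.11 to 0.32 for Mthfd1l and -0.67 to 0.16 for Aldh1l2. Psph turned to 0.017 with library size alone, to 0.063 with limma on log2(FPKM + 1), to 0.065 on log2(FPKM + 0.1) and to 0.18 on log2(TPM + 1), where the median of all genes tested moved by 0.15. With the fibroblast covariate Psat1 turned to -0.20, Psph to 0.27, Mthfd2 to -0.018 and Aldh1l2 to 0.19, while Mthfd1 moved to -0.65, Phgdh to -0.29, Shmt1 to 0.14, Shmt2 to 0.23 and Mthfd1l to 0.072. That fit adds a term beside genotype on only 4 libraries, and its smallest edgeR unadjusted p over the 9 enzymes was 0.231. The fibroblast list was lowest in library A (median -3.22 log2 CPM about each gene's mean) and highest in WT replicate 1 (2.05). These shifts therefore cannot be told apart from the weight of single libraries. The cause was not tested.

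Over all genes, 50 were called with no count filter and 1 with DESeq2. With a library left out, between 0 and 518 were called, the 518 without Tex11PM/Y library B, where the lone library is assumed to vary like the WT libraries. The enzymes called stayed at 0. The log2 ratio difference of Shmt2 over Shmt1 ran from -0.59 to 0.39 with a library left out, that of Mthfd2 over Mthfd2l from -0.063 to 2.63, that of Mthfd2 over Mthfd1 from 0.35 to 0.64 and that of Mthfd1l over Mthfd1 from 0.18 to 0.82. No paired analysis was possible because both Tex11PM/Y columns carry the same replicate number. With 2 libraries a genotype, 1% of 2-fold changes were recovered on data simulated with per-gene dispersions, against 93.4% with a dispersion of 0.01 for every gene.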
